A study of Mus musculus with 74 samples.

Results

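Mitochondrial beta-oxidation genes were followed through every table of a study of corepressor loss in mouse liver. The 9 members were *Cpt1a*, *Cpt2*, *Slc25a20*, *Acadl*, *Acadm*, *Acadvl*, *Hadha*, *Hadhb* and *Etfdh*. They were chosen by symbol, as 9 of the 14583 genes of the RNA-seq table and as the 322 peaks of 11 ChIP-seq tables whose nearest annotated gene was a member. The 9 encode the carnitine shuttle, acyl-CoA dehydrogenases, the trifunctional protein and the oxidoreductase that takes up their electrons. No enzyme that makes or uses ketone bodies is among them, so some of those genes are described from a separate pathway list.

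Fatty acids reach the mitochondrial matrix through the carnitine shuttle and are then shortened in repeated cycles that yield acetyl-CoA, part of which the fasting liver turns into ketone bodies. PPARα is the nuclear receptor that switches on many of these genes when it is bound by fatty acids, as a heterodimer with RXR at paired AGGTCA-like sites. NCOR and SMRT are corepressors that bring histone deacetylase HDAC3 to such receptors, and GPS2 is a further subunit of their complex.

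Livers came from C57BL/6 mice of 8 to 12 weeks on chow diet, according to the labels. Column headers of the histone mark counts in the *Gps2* line also read fed, and the other headers name no feeding state. *Gps2* LKO livers came from *Gps2* flox/flox mice crossed with Alb-Cre mice, in which the albumin promoter drives Cre in hepatocytes, and their controls, labelled WT, were *Gps2* flox/flox mice of the same breedings. *Ppara* KO mice lacked the receptor in all tissues, and *Ncor* LKO and *Smrt* LKO mice lacked those corepressors in the liver, each line with its own WT livers. Each ChIP-seq library held several ChIPs pooled at purification. RNA-seq compared 4 WT with 4 *Gps2* LKO livers, 11 ChIP-seq comparisons had 2 or 3 libraries per group, and GPS2 and Pol II in *Gps2* LKO livers had 1 library per group. The methods describe replicates as biological, and the labels do not say how many animals stand behind each library, so p-values measure the spread between these libraries.

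Totals ran from 13.2 M to 20.1 M counted reads in RNA-seq and from 7.90 M to 46.1 M tags in ChIP-seq, and ChIP-seq values are given as TP10M, tags per 10000000 total tags. The targeted gene *Gps2* had 16.4, 15.8, 16.7 and 15.1 CPM (counts per 1000000 reads, scaled by TMM, the trimmed mean of M-values) in WT livers and 12.7, 9.87, 9.17 and 12.9 CPM in LKO livers, all lower, with a logFC (log2 fold change, LKO against WT) of -0.53 ± 0.11 (SE, n = 4 and 4) and an adjusted p of 0.0021. All 6 hepatocyte markers were present (3 higher and 1 lower in LKO livers), with a summed level of 105848 to 109710 CPM in WT and 143477 to 170496 CPM in LKO livers. Markers of other cells were higher in LKO livers for 6 of 6 Kupffer cell and macrophage genes (124 to 129 CPM against 168 to 191 CPM in sum) and 4 of 4 stellate cell genes (51.8 to 52.7 against 80.5 to 100.1 CPM). The same held for 1 of 4 endothelial (78.0 to 82.0 against 75.6 to 92.9 CPM), 2 of 4 cholangiocyte (9.11 to 11.5 against 12.5 to 15.1 CPM) and 1 of 1 tested lymphocyte genes (5.03 to 6.24 against 7.92 to 8.60 CPM). Of all tested genes 23.4% were higher and 21.4% lower. The RNA table had no row for *Ckm*, *Myh1* or *Adipoq*, the muscle and adipose markers. In bulk liver, fewer cells of a type and less RNA per cell cannot be told apart, and the part of these markers in the members' values was not tested.

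Among the ChIP-seq libraries, 2 WT libraries of the *Ncor* line stood apart before any comparison. WT replicate 3 of the GPS2 table had 3.07% of its tags in peaks against 8.23% and 7.82% in the other WT libraries, and WT replicate 3 of the PPARα table had 8.96% against 19.3% and 18.6%. In the *Ppara* line, WT replicate 3 of the GPS2 table had a higher share, 4.39% against 2.55% and 2.42%. The 3 WT libraries of PPARα in the *Gps2* line differed by no more than sampling noise (chi-square per degree of freedom 1.06, and 1.73 in the LKO libraries), so their tags were summed and counted as 1 sample.

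The sequences below show the closest match to a PPARα response element inside 6 member peaks that lost PPARα tags in *Ppara* KO livers. The motif searched was AGGTCANAGGTCA (2 copies of AGGTCA 1 base apart, both strands) with up to 2 mismatches at its 12 fixed letters, in 200-base windows around peak centres. Capitals mark the 13 motif letters, each line reads 5′ to 3′ on the strand of the match, and positions are mm9.
Acadm, chr3:153607925-153607953, minus strand, upstream of the gene, 2 mismatches: ccaagtaaAGGTCACAGCTGActgctaga
Etfdh, chr3:79432209-79432237, minus strand, exon, 1 mismatch: tatcatctAGGTTAAAGGTCAtgagaaga
Slc25a20, chr9:108564465-108564493, plus strand, UTR of an exon, 2 mismatches: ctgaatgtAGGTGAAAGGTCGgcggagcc
Slc25a20, chr9:108566154-108566182, minus strand, intron, 2 mismatches: aggtcaaaAGGACAGTGGTCAgccatggg
Acadvl, chr11:69828842-69828870, minus strand, UTR of an exon, 1 mismatch: aagagaagAGGTCAGTGGTCAagacttcg
Cpt1a, chr19:3336650-3336678, plus strand, intron, 2 mismatches: ggccaagtAGGGGAGAGGTCAggtcgaga

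Over all PPARα peaks of the same table, 14% of windows held a match with up to 2 mismatches and 3.14% one with up to 1. The 18 member peaks whose PPARα tags were lower by the test in *Ppara* KO livers held 6 and 2 such matches, and the other 15 member peaks held 0. The 14% and 3.14% cover all peaks, called or not, and no share was taken over called peaks alone. These counts describe letters in a window and are neither binding sites nor a cause.

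In RNA of *Gps2* LKO livers all 9 members passed the filter on low counts. *Acadm* and *Acadl* were higher in LKO livers, *Cpt2*, *Etfdh* and *Slc25a20* were lower, and the other 4 did not pass the test (edgeR's quasi-likelihood test, adjusted p below 0.05 by Benjamini-Hochberg over 12220 genes). The background was high, since 44.8% of all tested genes passed in either direction, 23.4% higher and 21.4% lower. LKO libraries differed more among themselves than WT libraries (chi-square per degree of freedom 17.0 against 2.07), and the share called was 56.8% without LKO replicate 2 and 35.3% to 39.6% without any other single library. The members' median logFC was 0.01 beside 0.03 over all genes, and their summed level was 2039 to 2062 CPM in WT and 2038 to 2123 CPM in LKO livers. No member had a logFC above 0.36 or below -0.32.

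By length-scaled level in WT livers, *Acadvl* (144 RPKM, CPM per 1000 bases of exon) and *Cpt1a* (120.4 RPKM) led. *Etfdh* (103 RPKM), *Acadl* (93.0), *Hadha* (92.9) and *Acadm* (86.1 RPKM) lay close together, followed by *Cpt2* (64.1) and *Slc25a20* (58.2 RPKM). Among neighbours in this order the WT ranges of *Acadl* and *Hadha* overlapped, as did those of *Hadha* and *Acadm*, and the other neighbours were separate. *Hadhb* came last, at 7.13 RPKM.

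The carnitine shuttle was uneven. *Cpt1a* (chr19:3323301-3385732, plus strand), whose product attaches fatty acids to carnitine at the outer membrane, had 516, 523, 519.9 and 512 CPM in WT and 469, 614, 535 and 466 CPM in LKO livers. The LKO libraries lay on both sides of a narrow WT range, with a logFC of 0.01 ± 0.08 (SE) and an adjusted p of 0.936. *Slc25a20* (chr9:108564429-108586972, plus strand), the carrier that takes acylcarnitines across the inner membrane, had 104, 103, 103 and 105 CPM in WT and 94.8, 80.5, 81.8 and 99.1 CPM in LKO livers. All LKO values were lower, with a logFC of -0.22 ± 0.07 and an adjusted p of 0.0258.

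*Cpt2* (chr4:107576586-107596215, minus strand) encodes the inner membrane enzyme that turns acylcarnitines back into acyl-CoA. Its level was 152, 149.6, 152 and 148 CPM in WT and 123, 118, 124 and 124 CPM in LKO livers. The groups were separate and *Cpt2* fell by 18.8%, with a logFC of -0.30 ± 0.05 and an adjusted p of 6.78e-04.

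The acyl-CoA dehydrogenases, which start each cycle on chains of different length, went from no call to the members' largest rise. *Acadvl* (chr11:69823685-69828913, minus strand), for very long chains, had 314, 317, 315 and 314 CPM in WT and 358, 289, 351 and 349 CPM in LKO livers. LKO replicate 2 lay below all WT libraries and the other 3 above them, and the logFC of 0.10 had an adjusted p of 0.269. *Acadl* (chr1:66877413-66909851, minus strand), for long chains, had 181, 180.0, 175 and 189 CPM in WT and 219.5, 184, 199 and 218 CPM in LKO livers.

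*Acadl* was above the WT range in 3 of 4 LKO livers, with a logFC of 0.18 ± 0.07 and an adjusted p of 0.0408. *Acadm* (chr3:153585321-153607596, minus strand), for medium chains, had 174, 172, 176 and 189 CPM in WT and 228, 203, 251 and 228 CPM in LKO livers. Every LKO library was above every WT library, the mean was 28.2% higher, and the logFC was 0.36 ± 0.07 with an adjusted p of 0.0011.

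*Hadha* and *Hadhb* encode the alpha and beta subunits of the mitochondrial trifunctional protein, which carries out the remaining steps on long chains, and they start head to head on chromosome 5 (chr5:30444841-30481702, minus strand, and chr5:30481788-30511133, plus strand). ChIP-seq peaks between their starts are assigned to *Hadhb* in the tables and cannot be split between them. *Hadha* had 358, 358, 364 and 344 CPM in WT and 349, 369, 373 and 346 CPM in LKO livers, with overlapping groups and a logFC of 0.01 ± 0.05. *Hadhb* had 15.01, 14.1, 14.3 and 15.7 CPM in WT and 16.3, 12.7, 16.0 and 16.2 CPM in LKO livers, again overlapping, with a logFC of 0.04 ± 0.10.

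*Hadhb* has a copy on chromosome 15 (mm9 chr15:103416878-103418809) that matches its transcript at 97.4% identity, so its count is uncertain. *Acadm* has only a partial copy on chromosome 8 (chr8:99688263-99689508), at 93.6% identity.

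*Etfdh* (chr3:79407710-79432785, minus strand) encodes the oxidoreductase that passes electrons from these dehydrogenases to ubiquinone. It had 224, 233, 233 and 246 CPM in WT and 185, 179, 194 and 191 CPM in LKO livers. The groups did not overlap and *Etfdh* fell by 20.1%, with a logFC of -0.32 ± 0.06 and an adjusted p of 5.24e-04.

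Changes across all genes went with exon length (Spearman's rho of logFC and length -0.40 over 12220 genes). With an offset that removed this trend within each library, *Acadl* lost its call (adjusted p 0.453), while *Acadm* (logFC 0.24), *Cpt2* (-0.38), *Slc25a20* (-0.38) and *Etfdh* (-0.41) kept theirs. When each of the 8 libraries was left out in turn, *Cpt2*, *Etfdh* and *Acadm* were called 8 times, *Slc25a20* 3 times (without LKO replicate 1, 2 or 4) and *Acadl* 2 times (without LKO replicate 2 or 3), and *Acadvl* was called without LKO replicate 2.

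**Figure D1:**
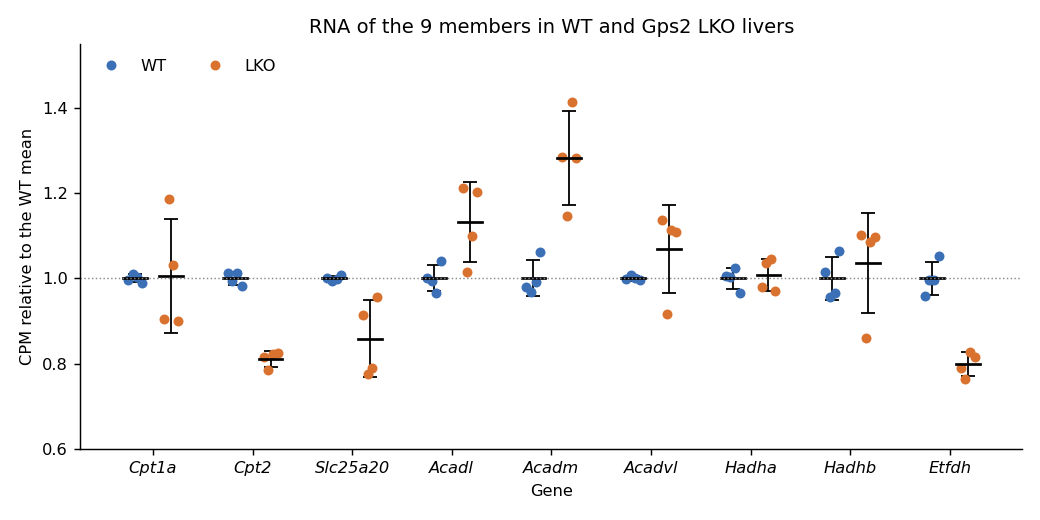
RNA level of each member in the 4 WT and 4 LKO libraries, as CPM divided by the WT mean of that gene (y axis; points are libraries, bars the mean and SD). *Cpt2*, *Slc25a20* and *Etfdh* lie wholly below their WT libraries and *Acadm* wholly above, while the LKO libraries of *Cpt1a* spread over both sides.

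Further genes of the pathway were counted from 4 lists, beside 23.4% higher and 21.4% lower over all tested genes. Of 16 genes of activation, import and later beta-oxidation steps, 6 were higher, 3 lower and 7 not past the test. The higher ones included *Acsl5* (logFC 0.72), an acyl-CoA synthetase, *Etfb* (0.41), a subunit of the flavoprotein that hands electrons to the *Etfdh* product, *Crat* (0.40), *Echs1* (0.35) and *Acaa2* (0.25). The lower ones were *Slc22a5* (-0.58), the plasma membrane carnitine transporter, *Acsl1* (-0.29) and *Acad11* (-0.22). With the offset on exon length the list gave 3 higher and 5 lower, beside 21.7% and 22.1% of all genes. *Etfb* (adjusted p 0.158) and *Acaa2* (0.336) were then no longer called.

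Among the ketone body genes described here, *Bdh1* (logFC 0.26), the transporter gene *Slc16a1* (0.28) and *Oxct1* (0.80), whose product uses ketone bodies, were higher. *Slc16a6*, a transporter gene, was lower (logFC -0.78). *Acat1*, which encodes an acetoacetyl-CoA thiolase, had 366 to 387 CPM in WT and 352 to 423 CPM in LKO livers, with overlapping groups, a logFC of 0.07 and an adjusted p of 0.391. *Oxct1* was low throughout, at 2.67 to 3.39 CPM in WT and 4.53 to 5.70 CPM in LKO livers.

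Of 3 genes of malonyl-CoA control, *Acaca* (logFC 0.41), which makes the inhibitor of the *Cpt1a* product, and *Mlycd* (0.37), which removes it, were both higher, and *Acacb* had a logFC of 0.25 and an adjusted p of 0.124. Of 6 regulators, *Ppargc1a* (logFC 0.53) was higher and *Hnf4a* (-0.41), *Ppara* (-0.39) and *Rxra* (-0.26) were lower. *Ppara* had 319.5 to 349 CPM in WT and 217 to 349 CPM in LKO livers, with overlapping groups and an adjusted p of 0.0205. With the offset on exon length, *Ppara* (adjusted p 0.0731) and *Rxra* (0.0769) were no longer called, and *Acacb* was called higher (logFC 0.54, adjusted p 3.46e-06).

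In *Ppara* KO livers, which lack the antigen, the PPARα table held 33 member peaks. Tags at the peak with the most WT tags were nearly gone at 8 of the 9 genes. The intron peak of *Cpt1a* 3254 bp after its TSS (transcription start site) had 26.9 and 23.7 TP10M in WT and 1.37 and 2.2 in KO libraries, a logFC of -3.77 ± 0.45 with an adjusted p of 2.74e-05. The *Acadm* promoter peak at -277 bp had 29.0 and 32.1 TP10M in WT and 2.75 and 2.93 in KO libraries (logFC -3.39 ± 0.38).

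At *Acadl* (+487 bp) the values were 24.8 and 31.4 against 2.75 and 1.47 TP10M. At *Slc25a20* (+69 bp, holding the sequence printed above) they were 25.5 and 19.9 against 2.06 and 0. At *Etfdh* (+435 bp, with the printed exon match) they were 24.1 and 25.2 against 2.06 and 3.66.

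*Hadha* (+2761 bp) had 19.1 and 20.6 TP10M in WT and 2.06 and 1.47 in KO libraries. *Acadvl* (+420 bp) had 15.6 and 22.2 against 1.37 and 0, and *Cpt2* (+1509 bp) had 16.3 and 20.6 against 2.75 and 0.733. In each of these 8 peaks both KO libraries were below both WT libraries, as in 68.3% of all peaks, with logFC between -4.56 and -3.08 and adjusted p of at most 2.85e-04. Each peak was picked for its tags in these same WT libraries, which favours a large fall, so these values are no separate check. *Hadhb* was the exception, with a single peak assigned to it, 70 bp after its TSS, that had 0.708 and 2.29 TP10M in WT and 0.687 and 2.2 in KO libraries (logFC -0.05 ± 1.04). The *Hadha* peak at +2761 bp also lies near the *Hadhb* start, upstream of it. Peaks go to the nearest gene, so the tables cannot tell whether that peak serves *Hadhb* too.

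**Figure D2:**
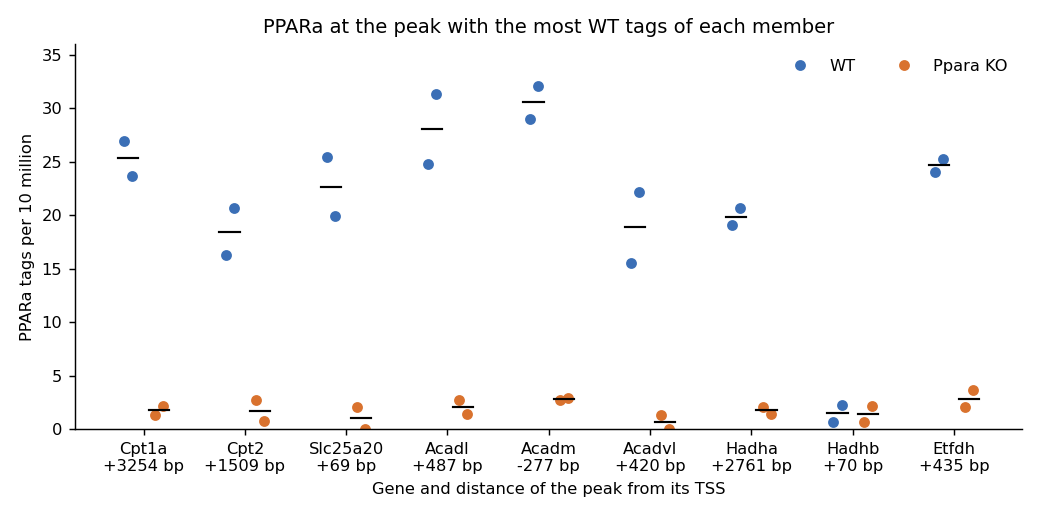
PPARα TP10M (y axis) at the peak with the most WT tags of each member in 2 WT and 2 *Ppara* KO libraries; points are libraries and lines are means. WT libraries sit between 15.6 and 32.1 tags at 8 genes, with KO libraries at 3.66 or below, and *Hadhb* is at 2.29 or below in all libraries.

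Altogether 18 of the 33 member peaks were called lower and 0 higher, beside 27.6% and 0.0174% of all 40241 peaks, and the members' median logFC was -2.68 beside -1.68 over all peaks. In 27 of 33 every KO library was below every WT library (68.3% of all peaks). Member peaks held more tags than most, and among peaks with a mean of at least 10 tags all 11 member peaks were called, beside 96.7% of all such peaks. Peaks pass this filter mostly through WT tags, so these calls are no separate check. A mean of at least 10 tags was reached by 10408 peaks in WT libraries and by 174 in KO libraries. With TMM scaling, which moved the all-peak median by 1.46, 7 member peaks were called. The share of all peaks called is not given for this scaling or for the fits that leave out a library. These counts therefore do not set the members apart from the whole table. Without WT replicate 1 or WT replicate 2 none of the 33 was called, and without either KO library 16 or 17 were, with the lone library assumed to vary like the other group.

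In *Gps2* LKO livers PPARα tags were higher at 8 of 40 member peaks and lower at 0, beside 21.5% and 0.147% of all 102519 peaks. Since the 3 WT libraries were summed to 1 sample, the spread in this test comes from the 3 LKO libraries alone, and WT livers are assumed to vary like them. The members' median logFC was 0.45, below the all-peak median of 0.62, and with TMM scaling, which moved that median by -0.60, the members' median turned to -0.16 and 0 peaks were called. DESeq2 called 0 as well. Calls were few over the whole table too, with 0.539% of all peaks higher with TMM scaling and 2.25% with DESeq2. The called peaks were at *Acadm* (4), *Cpt1a* (2), *Acadl* (1) and *Cpt2* (1), and no peak of the other 5 members was called.

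The 4 *Acadm* peaks were not the promoter peak. The peak at -2830 bp had 48.1, 58.9 and 53.0 TP10M in WT and 96.5, 83.4 and 88.0 in LKO libraries. Against the summed WT sample the logFC was 0.72 ± 0.25 with an adjusted p of 0.0234. Peaks in introns at +7055 bp (logFC 1.52), +12911 bp (0.72) and +14779 bp (0.87) were also called. The peak at +7055 bp was low, with 5.13 TP10M in the summed WT sample. The *Acadm* promoter peak at -288 bp, the strongest PPARα peak of any member in this table, had 206, 197 and 201 in WT and 246, 271 and 210.5 in LKO libraries, all higher, with a logFC of 0.27 ± 0.25 and an adjusted p of 0.436.

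*Cpt1a* was called at +10098 bp (35.4, 55.1 and 53.0 against 85.0, 95.7 and 79.2 TP10M, logFC 0.82) and at +12864 bp (logFC 0.79). *Acadl* was called 29 bp after its TSS (17.7, 21.8 and 22.5 against 29.9, 48.3 and 38.1, logFC 0.90). *Cpt2* was called at +2109 bp (41.8, 35.1 and 45.1 against 64.4, 80.5 and 68.6, logFC 0.82). Every LKO library was above every WT library at 25 of the 40 member peaks, which 46.7% of all peaks also showed, and the share of tags in peaks was 19.2% to 21.9% in WT and 28.9% to 32.1% in LKO libraries.

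When 1 library was left out, the count of 8 ranged from 3 (without WT replicate 1 or LKO replicate 2) over 4 (without LKO replicate 3) to 10. The share of all peaks called higher moved too. It was 14.3% without WT replicate 1, 15.1% without LKO replicate 2, 9.88% without LKO replicate 3 and 14.8% to 23.9% without any other library. With the 3 WT libraries as 3 samples the count was 17, beside 36.6% of all peaks.

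In *Ncor* LKO livers PPARα did not pass the test at any of 36 member peaks, in edgeR or in DESeq2, and 0 passed an unadjusted p of 0.05. The background was 0.196% called. The members' median logFC was 0.09 beside 0.10 over all peaks, and -0.23 without WT replicate 3, the library with few tags in peaks. At the *Acadm* promoter peak (-266 bp) the libraries had 146, 136 and 81.3 TP10M in WT and 129, 133 and 164 in LKO, and groups overlapped at all 36 peaks.

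The GPS2 antibody gave tags at peaks of all 9 members in WT liver and almost none in *Gps2* LKO liver, in 1 library each. Over the 27 member peaks there were 1108 tags in WT and 30 in LKO, with 12 peaks at 0 tags and no more than 4 tags at any peak. All 27 were at least 2-fold lower, as were 99.6% of all peaks. *Cpt1a* had 75 tags at +3248 bp in WT and 0 in LKO, at least 23.9-fold lower when LKO is set to a floor of 3 tags, and *Acadl* had 78 and 0 at +513 bp, at least 24.8-fold lower. At the *Acadm* promoter (-273 bp), 81 tags in WT (52.3 TP10M, exact 95% Poisson interval 41.5 to 65.0, counting error only) compared with 4 in LKO (2.70, interval 0.737 to 6.92).

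In *Ppara* KO livers all 21 member peaks of GPS2 had a logFC below 0, as 94.8% of all peaks had. None passed the test in edgeR or DESeq2, with 0.273% of all peaks called in edgeR. An unadjusted p of 0.05 was passed by 6 member peaks, beside 6410 of all 27842 peaks. The median logFC was -0.79 beside -0.93 over all peaks, but 0.16 with TMM scaling, which moved the all-peak median by 0.94. The largest difference was at *Cpt2* +1444 bp, with 8.33, 11.1 and 24.6 TP10M in WT and 5.10, 3.03 and 2.88 in KO libraries, a logFC of -1.96 ± 0.62 and an adjusted p of 0.121. The 24.6 came from WT replicate 3, the WT library with the largest share of tags in peaks. Without that library the all-peak median was -0.58. KO libraries were all lower at this *Cpt2* peak, and at 5 of the 21 peaks in all, beside 31.3% of all peaks.

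In *Ncor* LKO livers the count of GPS2 member peaks turned on 1 library. With all libraries 0 of 33 peaks passed (background 0.0338%). An unadjusted p of 0.05 was passed by 19, beside 19323 of all 56278 peaks. DESeq2 called 10 lower, beside 14.3% of all peaks. The median logFC was -1.43 beside -1.12 over all peaks, and -0.28 beside -0.04 with TMM scaling. Without WT replicate 3, 29 of 33 were called lower, beside 59.1% of all peaks.

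*Hadha* showed the lowest p among the members, at +2352 bp, with 21.0, 14.1 and 5.36 TP10M in WT and 3.94, 1.77 and 3.12 in LKO libraries (logFC -2.15 ± 0.69, adjusted p 0.0761). The strongest GPS2 peak of *Cpt1a*, at +3294 bp, had 93.9, 89.8 and 30.5 against 26.6, 26.6 and 26.0. WT replicate 3 lay near the LKO libraries at both peaks, and LKO libraries were all below WT at 11 of 33 peaks, beside 26.6% of all peaks.

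In *Ppara* KO livers NCOR was lower at 6 of 45 member peaks and higher at 0, beside 2.51% and 0.136% of all 115042 peaks. All 6 lay in introns, between 516 and 2149 bp after the TSS, of the carnitine shuttle genes *Cpt2* and *Slc25a20*. *Cpt2* at +1478 bp had 30.9, 37.8 and 37.9 TP10M in WT and 10.6, 8.08 and 9.25 in KO libraries, with a logFC of -1.93 ± 0.36 and an adjusted p of 2.68e-05. *Cpt2* at +2149 bp had 32.5, 30.1 and 33.7 against 10.6, 6.06 and 9.25 (logFC -1.90 ± 0.37, adjusted p 7.13e-05).

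*Slc25a20* was called at +516, +697, +1633 and +1970 bp. The last had 17.1, 18.9 and 23.6 TP10M in WT and 2.45, 5.39 and 2.85 in KO libraries, the members' largest fall in NCOR (logFC -2.42 ± 0.44, adjusted p 1.31e-05). At +697 bp the values were 31.7, 20.6 and 34.5 against 12.3, 7.41 and 5.69 (logFC -1.79 ± 0.38). All KO libraries were below all WT libraries at these 6 peaks and at 13 of the 45, beside 18.8% of all peaks.

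The promoter peaks of the same genes had other values, with a logFC of -0.43 (adjusted p 0.512) at *Cpt2* +31 bp and 0.01 at *Slc25a20* +42 bp. *Cpt1a* had the most NCOR tags of any member and none of its 10 peaks was called. Its peak at -3002 bp had 137, 112 and 141 TP10M in WT and 125, 127 and 98.9 in KO libraries (logFC -0.15 ± 0.17), and overlapped. At the *Acadm* promoter (-252 bp) the values were 67.5, 77.4 and 98.6 against 99.7, 113 and 78.3, with a logFC of 0.26 and an adjusted p of 0.532.

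The members' median logFC of NCOR was -0.26 beside -0.32 over all peaks, and 0.04 with TMM scaling, which moved the all-peak median by 0.30. Under that scaling *Cpt2* at both sites and *Slc25a20* at +697 and +1970 bp stayed called lower, and the *Acadm* promoter peak was called higher (logFC 0.57, adjusted p 0.0136).

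Sites were matched between tables by overlap. Of the 18 PPARα peaks lower in *Ppara* KO livers, 17 overlapped an NCOR member peak, 3 of them called lower for NCOR, at *Cpt2* +1509 bp and at *Slc25a20* +706 and +1648 bp. A GPS2 member peak of the *Ppara* table overlapped 12, with 0 called. A PPARα member peak of the *Gps2* table overlapped 17. Of the PPARα peaks called in that table, only *Acadm* -2830 bp overlapped one of the 18. The other matched sites had WT means of 0.382 (*Acadl* +29 bp) to 8.01 TP10M (*Acadm* +12911 bp) in the *Ppara* line and were not called lower there. Of the 6 NCOR peaks that fell, 4 overlapped a PPARα member peak and 3 a called one. The NCOR, GPS2 and PPARα tables of the *Ppara* line come from separate libraries, and whether their WT livers were the same animals is not given in the labels.

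**Figure D3:**
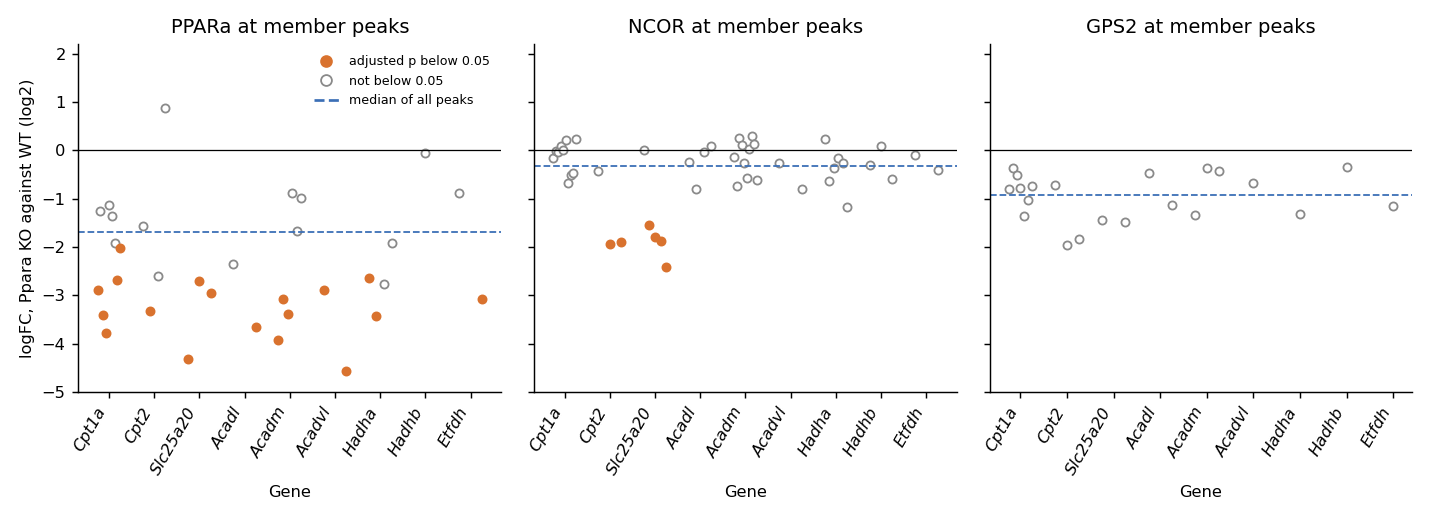
LogFC of *Ppara* KO against WT (y axis, log2) at every member peak of PPARα, NCOR and GPS2, by gene (x axis); filled points have an adjusted p below 0.05 and the dashed line is the median of all peaks. PPARα has 18 called peaks over 8 genes, NCOR has 6 at *Cpt2* and *Slc25a20*, and GPS2 has 0.

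In *Gps2* LKO livers NCOR did not pass the test at any of 31 member peaks, in edgeR or DESeq2, with 0 past an unadjusted p of 0.05 and a background of 0.0173%. The median logFC was -0.12 beside -0.03 over all peaks, and 8.26% to 13.1% of WT tags and 7.33% to 14.7% of LKO tags lay in peaks. At the strongest peak of *Cpt1a* (-3026 bp) NCOR had 94.5, 93.0 and 67.8 TP10M in WT and 86.4, 112 and 58.6 in LKO libraries (logFC 0.01 ± 0.41). Groups overlapped at 30 of the 31 peaks. At *Acadm* +6991 bp all LKO libraries were higher (14.1, 14.9 and 14.6 against 11.3, 13.7 and 9.86), as at 2.67% of all peaks.

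H3K27ac marks active promoters and enhancers, and H3K4me3 marks active promoters. In the shared *Gps2* table of both marks 12 of the 23 member regions were on the H3K27ac lists of at least 2 libraries, and 9 were on the H3K4me3 lists. None was called for either mark in edgeR or DESeq2, beside 1.42% and 0.916% of all regions called in edgeR. An unadjusted p of 0.05 was passed by 1 and 2, beside 6881 of all 47108 and 1837 of all 22814 regions. Median logFC was 0.06 for H3K27ac and 0.06 for H3K4me3, beside 0.06 and 0.04 over all regions.

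The *Acadm* region centred 170 bp after its TSS had 584 and 596 H3K27ac TP10M in WT and 614 and 611 in LKO libraries (logFC 0.05 ± 0.08). Its H3K4me3 tags were 522 and 495 in WT and 563 and 607 in LKO libraries, a logFC of 0.20 ± 0.07 with an adjusted p of 0.364. The *Cpt1a* region, a domain centred 14064 bp after the TSS, had 2589 and 2824 H3K27ac tags against 2755 and 2460, overlapping (logFC -0.05 ± 0.09). At *Slc25a20*, whose RNA fell, both LKO libraries had 269 H3K27ac TP10M beside 235 and 222 in WT libraries (logFC 0.23 ± 0.09, adjusted p 0.268), all higher. LKO libraries were all higher at 6 of 12 H3K27ac regions (30.1% of all regions) and 6 of 9 H3K4me3 regions (27% of all).

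In *Ncor* LKO livers none of 18 member regions was called for H3K27ac (background 3.12%, DESeq2 0). An unadjusted p of 0.05 was passed by 3, beside 10686 of all 68817 regions. The *Cpt1a* region at +7296 bp had 2206, 2405 and 2401 TP10M in WT and 1842, 2194 and 1829 in LKO libraries, all lower, with a logFC of -0.26 ± 0.10 and an adjusted p of 0.232. *Etfdh* at +702 bp had a logFC of 0.28 (adjusted p 0.295). In *Smrt* LKO livers none of the same 18 was called either (background 0%, DESeq2 0). There 2 passed an unadjusted p of 0.05, beside 4079 of all 68800 regions. *Cpt1a* at +7296 bp had 1862, 1934 and 2290 in WT against 2162, 1948 and 2046 in *Smrt* LKO libraries (logFC 0.02 ± 0.09). The difference between the *Ncor* and *Smrt* effects was tested as an interaction. It was called at 0 of 18 member regions (0.426% of all), with a lowest adjusted p of 0.347. An unadjusted p of 0.05 was passed by 4, beside 7693 of all 68818 regions.

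Pol II was measured in 1 library per group, so its values have no replicate check. Of 15 member peaks 13 had more tags in *Gps2* LKO liver, beside 58.8% of all peaks, 2 were at least 2-fold higher (7.72% of all) and 1 at least 2-fold lower (5.94%). The exact 95% Poisson intervals were separate at 1 peak, *Cpt1a* +9967 bp, with 31.7 TP10M (22.3 to 43.8) in WT and 66.4 (52.6 to 82.8) in LKO liver. At the promoters the values were 232 and 252 TP10M for *Cpt1a*, 159.6 and 177 for *Acadm* and 179 and 184 for *Cpt2*, with overlapping intervals. Intervals cover counting error only.

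**Figure D4:**
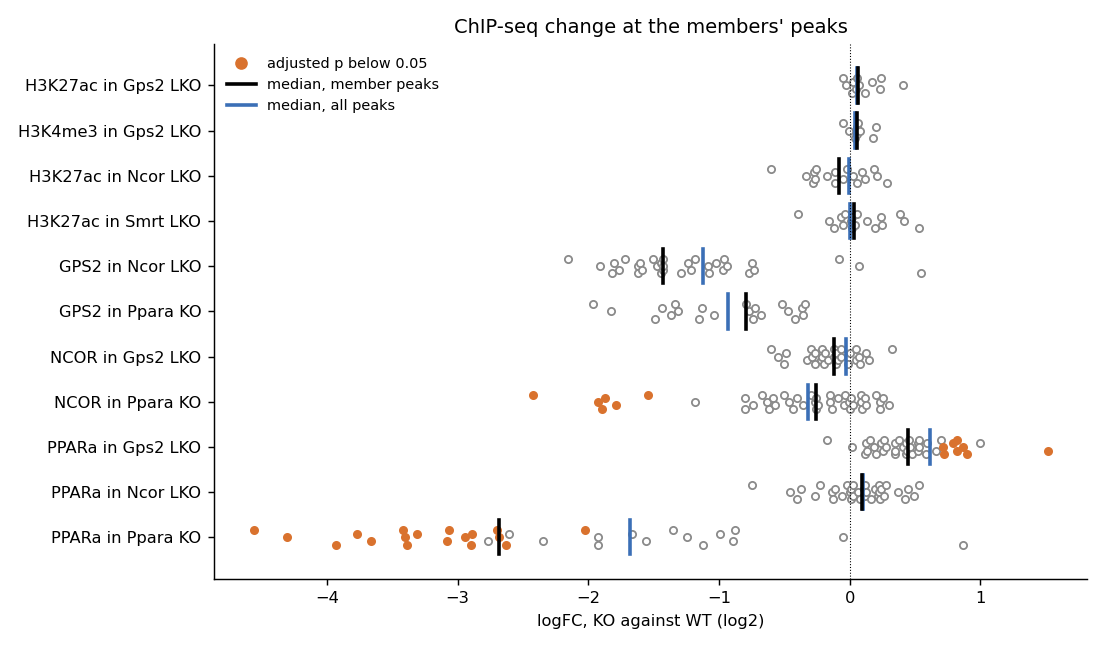
LogFC of KO against WT (x axis, log2) at every tested member peak in the 11 replicated ChIP-seq comparisons (rows); filled points have an adjusted p below 0.05, and black and blue bars are the medians of member and of all peaks. Member medians lie close to all-peak medians in most rows and below them for PPARα in *Ppara* KO livers, at -2.68 against -1.68.

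The RNA changes in *Gps2* LKO livers were set against WT occupancy, taken as the sum of TP10M over a member's peaks within 10000 bp of its TSS. For PPARα in WT livers of the *Ncor* line the order was *Cpt1a* (360.0), *Acadm* (215), *Acadl* (162), *Hadha* (142), *Slc25a20* (132), *Cpt2* (113), *Etfdh* (76.5), *Acadvl* (55.5) and *Hadhb* (40.8). This table includes the WT replicate with few tags in peaks. Each peak counts for its nearest gene only, so *Hadha* peaks that also lie within 10000 bp of the *Hadhb* TSS are not in the *Hadhb* sums. In the PPARα tables of the *Gps2* and *Ppara* lines *Cpt1a* and *Acadm* also led, but *Slc25a20* had rank 3 (303 and 45.7) and *Acadl* rank 6 (139.6 and 28.4). The members' median of 132 compares with 29.8 over all genes with such a peak. For GPS2 in the WT library of the *Gps2* line the highest sums were those of *Cpt1a* (179), *Acadm* (95.5) and *Cpt2* (74.2), and for NCOR in that line those of *Cpt1a* (229), *Hadha* (106) and *Acadm* (95.9).

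*Cpt1a*, which had the highest sum in all 8 WT groups, had no RNA change past the test, while *Acadm*, which rose, had rank 2 or 3. *Etfdh*, which fell, had ranks 4 to 8. In the GPS2 table of the *Ppara* line *Etfdh* (32.4) was level with *Acadm* (32.4), and *Cpt2*, which fell, was above both at rank 2. Over the 9 members Spearman's rho of RNA logFC and occupancy ran from -0.23 to 0.27 over the 8 WT groups of the PPARα, GPS2 and NCOR tables. Over all genes with a peak it ran from -0.15 to -0.03. These are descriptions: the points share libraries, sums rise with the number of peaks called, and genes are not independent replicates.

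**Figure D5:**
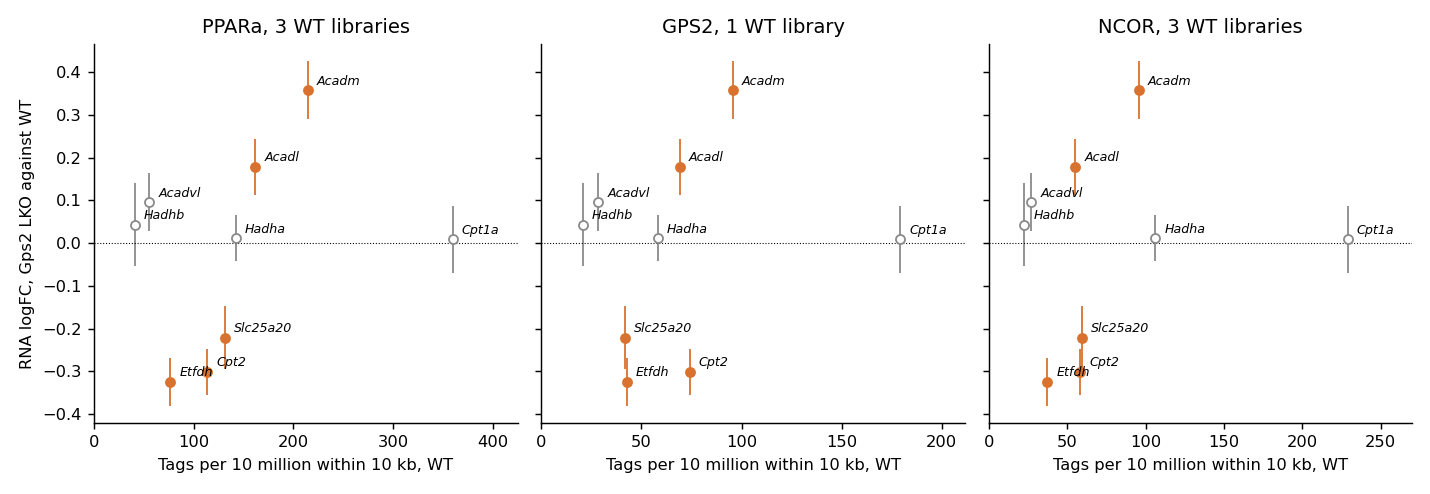
RNA logFC of *Gps2* LKO against WT (y axis, log2, bars are SE) against summed WT TP10M within 10000 bp of the TSS (x axis) for PPARα (*Ncor* line), GPS2 and NCOR (*Gps2* line); each point is a member and filled points have an adjusted p below 0.05 in RNA. *Cpt1a* lies farthest right in each panel with a logFC of 0.01, and *Acadm*, which rose, lies to the right of *Cpt2*, *Slc25a20* and *Etfdh*, which fell, in each panel, an order that did not hold for GPS2 in the *Ppara* line.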

How the data were processed

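RNA-seq gave the authors' deposited raw read counts per gene with an exon length column, and ChIP-seq gave raw tag counts per peak with peak position (mm9), nearest gene and distance to its TSS, which HOMER wrote per the file headers. The methods name HISAT2 alignment to mm9 with HOMER counting, while the labels also name featureCounts and a later mouse build, so gene positions are printed from GENCODE on mm9 and the counting program of the RNA table is not settled. Groups were taken from the labels.

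Counts were tested with edgeR 4.0.16 (R 4.3.3, quasi-likelihood test, Benjamini-Hochberg over the whole table, adjusted p below 0.05), with TMM scaling and a filter on low counts in RNA, and with total tags as library size in ChIP-seq, where every peak with at least 1 tag in the comparison was tested. Tag counts are printed per 10000000 total tags (TP10M). The shared H3K27ac and H3K4me3 table was tested on regions listed for that mark in at least 2 libraries. With 1 library per group no test was made. Alternatives were DESeq2 1.42.0, other scalings and filters, the replicate number as a block, an exon-length offset, peaks within 10000 bp of the TSS, and leaving out each library. Scripts were tested on simulated data.

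Named peaks are, per member and table, the one with the most WT tags, the one nearest the TSS and those called. *Cpt2* +1444 bp for GPS2, *Acadm* +6991 bp for NCOR and *Cpt1a* +9967 bp for Pol II were named after their values were seen. Pathway genes and markers come from fixed lists, of which at most the 5 largest changes per direction past the test were named, plus *Ppara*. *Acat1* and *Acacb*, which did not pass the test, were named outside this rule. Some genes of the ketone body list are not reported here. The members and lists were chosen with earlier results of these data known.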

Additional observations from a re-analysis of the deposited data

Results flagged for a closer look

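In groups of 4 libraries, the gap between the lowest or highest library and its neighbour was set against the group's range with Dixon's test at its 5% level for each of the 9 members, which gave 18 groups and 2 outliers. *Acadvl* was at 289 CPM in LKO replicate 2, against 349 to 358 CPM in the other 3 LKO livers. *Hadhb* was at 12.7 CPM in the same library, against 16.0 to 16.3 CPM. Chance flags about 5% of such groups. *Acadvl* was called higher in LKO livers when that library was left out, and *Hadhb* was not.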

How the results depend on the processing

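Of 296 recounts of called members, 267 stayed within 1.5 times the reported count and 29 moved. In RNA the 2 members called higher became 1 with RLE size factors, without the filter, with DESeq2, with the offset on exon length, and with that offset and the replicate block together, a fit chosen after seeing the data, and leaving out 1 library gave 1 to 3. The 0 GPS2 peaks called lower in *Ncor* LKO livers became 10 with DESeq2, 11 with the replicate block and 3 among peaks with a mean of at least 10 tags, and 0 to 29 with 1 library left out. Of all peaks, DESeq2, the block and that filter called 14.3%, 18.6% and 15.7% lower. NCOR in *Ppara* KO livers gained 1 higher peak with TMM scaling. The 8 PPARα peaks higher in *Gps2* LKO livers became 0 with DESeq2 or TMM scaling, 17 with 3 WT libraries as 3 samples, 17 with the replicate block (which needs those 3 samples, so 2 choices change at once), 4 within 10000 bp of the TSS, and 3 to 10 with 1 library left out. Of all peaks, DESeq2, TMM scaling, the 3 samples and the block called 2.25%, 0.539%, 36.6% and 36.1% higher. Leaving out 1 library gave 9.88% to 23.9%. The 18 PPARα peaks lower in *Ppara* KO livers became 0 with the replicate block, 7 with TMM scaling and 11 among peaks with a mean of at least 10 tags, where only 11 were tested, and 0 to 17 with 1 library left out. For these *Ppara* KO counts the share of all peaks under the block, TMM scaling or a left-out library is not given. The cause of the other moves was not tested.

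Whether replicate numbers pair the libraries was not settled. For NCOR in the *Ppara* line, same-numbered libraries correlated at 0.25 and 0.27 for replicates 2 and 3, but at -0.02 for replicate 1. Deviations of same-numbered RNA libraries correlated at 0.0050 to 0.11 and 2 of 4 WT libraries correlated best with their own number, and no ChIP-seq comparison had every correlation over 0.1 in 3 pairs. The replicate block left the RNA calls at 2 higher and 3 lower. Among 1745 values of single genes and peaks, 1540 kept their direction and side of the threshold or moved by less than their spread, 128 lost a call, 44 gained one, 33 moved, and 0 called values reversed. Low tag counts limit many peaks: *Hadhb* had at most 2.29 PPARα TP10M in the *Ppara* table.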
